A study of Macaca fascicularis with 2 samples.

Results

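A set of 39 nuclear genes that set the number, shape and turnover of mitochondria was followed in calf muscle of the cynomolgus macaque, Macaca fascicularis. The genes were listed by name for their known roles, and a gene was kept where the files used its symbol. That rule held for 38 of the 39 genes, out of 28162 symbols in all. The remaining one, TWNK, stands in the files under an older symbol, C9H10orf2, and its values are given apart.

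The tissue was gastrocnemius, a calf muscle, and 1 library labelled non-lean, with high fat diet as its treatment, was set against 1 library labelled lean, with chow diet. The labels say no more of the groups, so genotype, the number and age of the animals and the length of the diet stay unstated. The series title concerns obese muscle, a transcription factor and branched-chain amino acid metabolism. Poly(A) RNA was sequenced, and the values are estimated read counts per transcript, summed here per gene.

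Mitochondria are built from proteins of the nuclear genome and a few from their own DNA, and coactivators of the PGC-1 family switch on both through nuclear receptors and respiratory factors. The resulting network is joined by fusion GTPases, divided by the dynamin-related GTPase DNM1L and its membrane receptors, and cleared by mitophagy, in which damaged organelles are marked and taken up for digestion. In muscle the energy sensor AMP-activated protein kinase (AMPK) acts on all of these steps, and oxidative fibres are known for a denser network than glycolytic ones.

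Counts summed to 12731974 in the non-lean library and 15983348 in the lean library, with 20696 (non-lean) and 20692 (lean) genes detected. Levels are given as CPM, counts scaled to a common library size by the trimmed mean of M-values, on which 1 count is 0.0748 CPM in the non-lean and 0.0657 CPM in the lean library. Genes with a mean of at least 1 CPM are called tested, 13707 in all, and all 38 listed genes were among them. A log2 ratio is always non-lean over lean, and the bracket after it is its 95% Clopper-Pearson counting interval. With 1 library per group there is no replicate error, no test was made, and every difference below is between these libraries. Reads copied by PCR are not independent molecules, so the intervals cover counting error only. In bulk RNA, fewer cells of a type and less RNA per cell cannot be told apart.

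All 15 skeletal muscle markers were found in both libraries, with ACTA1 at 60128 CPM in the non-lean and 80371 CPM in the lean library. Over all tested genes 11.9% were at least 1.5-fold higher and 15.4% at least 1.5-fold lower. Slow fibre markers summed to 17857 CPM in the non-lean and 10358 CPM in the lean library. Of these 12 markers 8 were at least 1.5-fold higher and 2, CASQ2 and ANKRD2, at least 1.5-fold lower. Fast fibre markers summed to 117310 CPM in the non-lean and 156221 CPM in the lean library, with 5 of 13 at least 1.5-fold lower and none higher. Macrophage markers summed to 39.6 CPM in the non-lean and 134 CPM in the lean library, fibroblast markers to 512 CPM (non-lean) and 1144 CPM (lean), and satellite cell markers to 63.5 CPM (non-lean) and 112 CPM (lean). Adipocyte markers summed to 1285 CPM in the non-lean and 1236 CPM in the lean library, mostly from GPD1, PNPLA2 and CFD, while 5 of 9 tested were at least 1.5-fold lower and 0 higher, among them ADIPOQ with 3 counts (non-lean) and 46 counts (lean), and their median log2 ratio was -0.92. Endothelial markers summed to 294 CPM (non-lean) and 348 CPM (lean), and smooth muscle and pericyte markers to 233 CPM (non-lean) and 282 CPM (lean). The 3 tested lymphocyte markers summed to 3.07 CPM in the non-lean and 12.9 CPM in the lean library. These were CD4, PTPRC and JCHAIN, and most of the sum was CD4. The untested lymphocyte markers did not show this difference, on few counts. CD3E had 11 counts (non-lean) and 14 (lean), CD3D and CD8A each 6 (non-lean) and 7 (lean). NKG7 went the other way, with 7 counts (non-lean) and 4 (lean), and MS4A1 and CD79A were at 0 in both. Erythroid markers summed to 5.38 CPM (non-lean) and 3.88 CPM (lean). The 8 cardiac markers summed to 207 CPM in the non-lean and 177 CPM in the lean library, with MYH6 alone at 200 CPM (non-lean) and 170 CPM (lean) and NPPB at 0 in both. Immediate early genes, which respond within minutes to handling and activity, summed to 497 CPM in the non-lean and 840 CPM in the lean library. The median log2 ratio was -0.39 over 37 genes known for long transcripts and 0.50 over 35 genes known for short ones, lists chosen after the data had been seen. The part of any of these differences in the results that follow was not tested.

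Most of the mitochondrial genes lay close to each other in the 2 libraries. The 38 genes together took 0.348% of the non-lean counts (0.345 to 0.351) and 0.323% of the lean counts (0.320 to 0.326), which is 3314 CPM (non-lean) and 3395 CPM (lean) after scaling. In the non-lean library 52.5% of these counts, and in the lean library 53.1%, came from PINK1, PRKAG3 and MFN2. The ratio was under 1.5-fold in either direction for 84.2% of the 38 genes and for 69.4% of all tested genes. The median log2 ratio was 0.11, against -0.01 over all tested genes, with quartiles of -0.14 and 0.37 against -0.39 and 0.34.

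At least 1.5-fold higher, with an interval clear of 0, were 4 of the 38 genes, ESRRG, MTFP1, SSBP1 and TFB2M, and 11.9% of all tested genes were so. At least 1.5-fold lower were 2 genes, PRKAA2 and PRKAB2, where the background was 15.4%. No gene was 2-fold higher, where the background was 4.91%, and PRKAB2 alone was 2-fold lower, where it was 7.16%. The share at least 1.5-fold higher, 10.5%, was near that of all tested genes, and the share lower, 5.26%, was below it. All tested genes reach down to a mean of 1 CPM, while each of the 38 had at least 29 counts in each library. The shares were not matched for counts. Counting intervals lay above 0 for 16 of the 38 genes, or 42.1%, against a background of 25.8%, and below 0 for 7 genes, or 18.4%, against 28.8%. Intervals narrow as counts grow, so these last shares depend on how many counts a gene has. They depend on the scale as well. The lower ends for PRKAG3, NRF1, PINK1 and FUNDC1 were 0.007, 0.009, 0.010 and 0.024. DESeq2 size factors moved the median of the 38 genes by -0.031, a larger step than any of these lower ends. The genes nearest below 1.5-fold were DNM1L, OMA1 and FIS1, and those nearest above it were PRKAA2 at 1.51-fold and ESRRG at 1.52-fold. With DESeq2 size factors ESRRG and TFB2M were below 1.5-fold, with total counts or upper quartile scaling PRKAA2 was, and with total counts PRKAB2 stood at -0.99, just below 2-fold. Total counts also turned the balance over all tested genes, with 2414 at least 1.5-fold higher and 1555 lower, against 1629 and 2112.

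**Figure D1:**
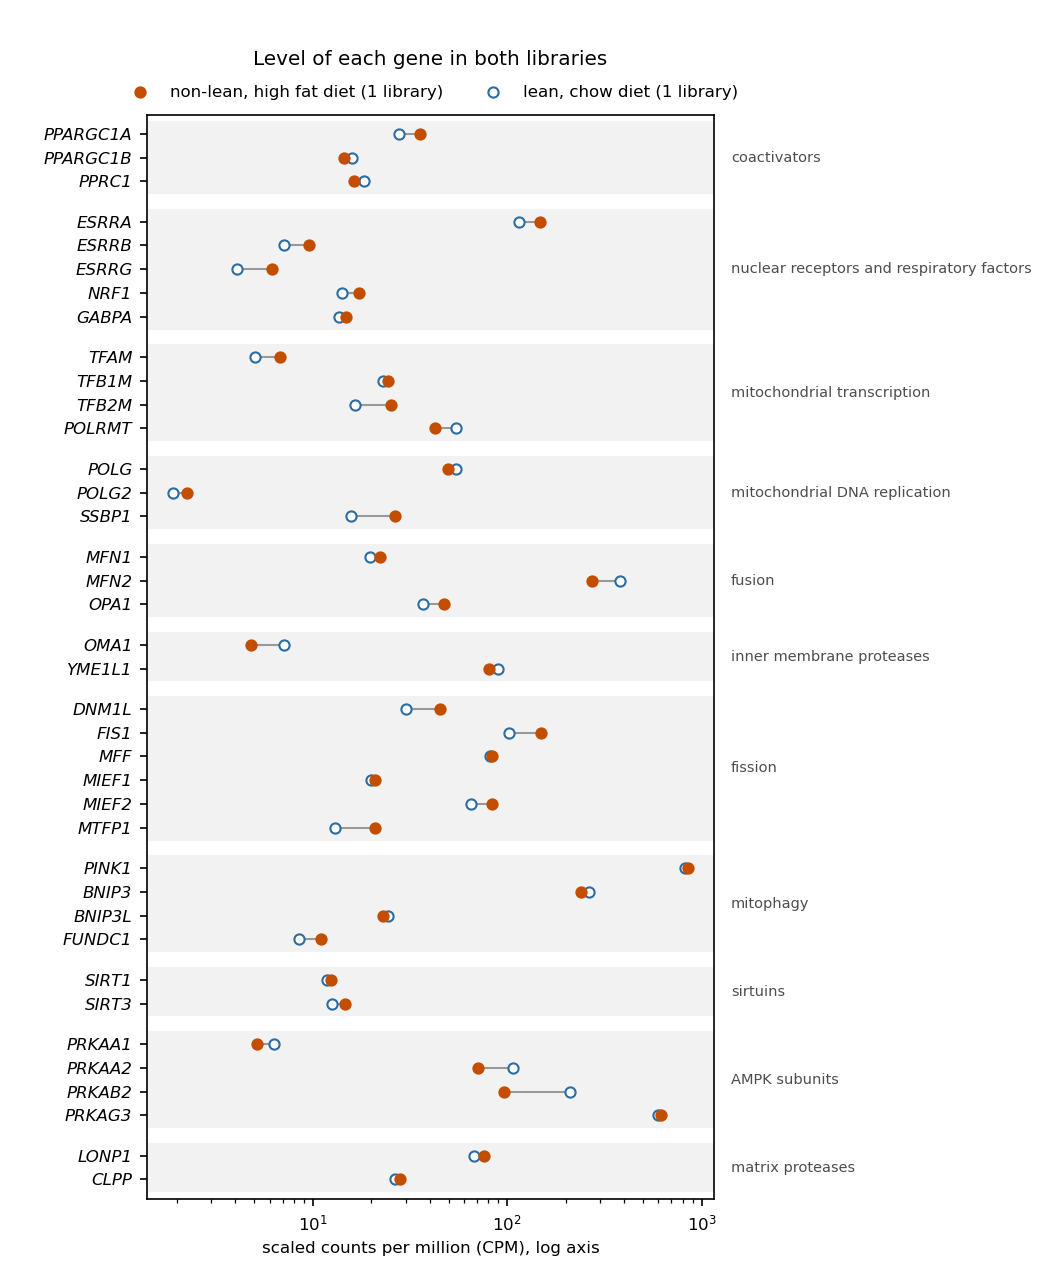
Scaled CPM on a log axis for each of the 38 genes, grouped by role, with filled points for the 1 non-lean library and open points for the 1 lean library. PINK1, at 853 CPM (non-lean) and 826 CPM (lean), has the most counts and POLG2, at 2.24 CPM (non-lean) and 1.91 CPM (lean), the fewest, and the widest gap between the points of a gene is that of PRKAB2.

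**Figure D2:**
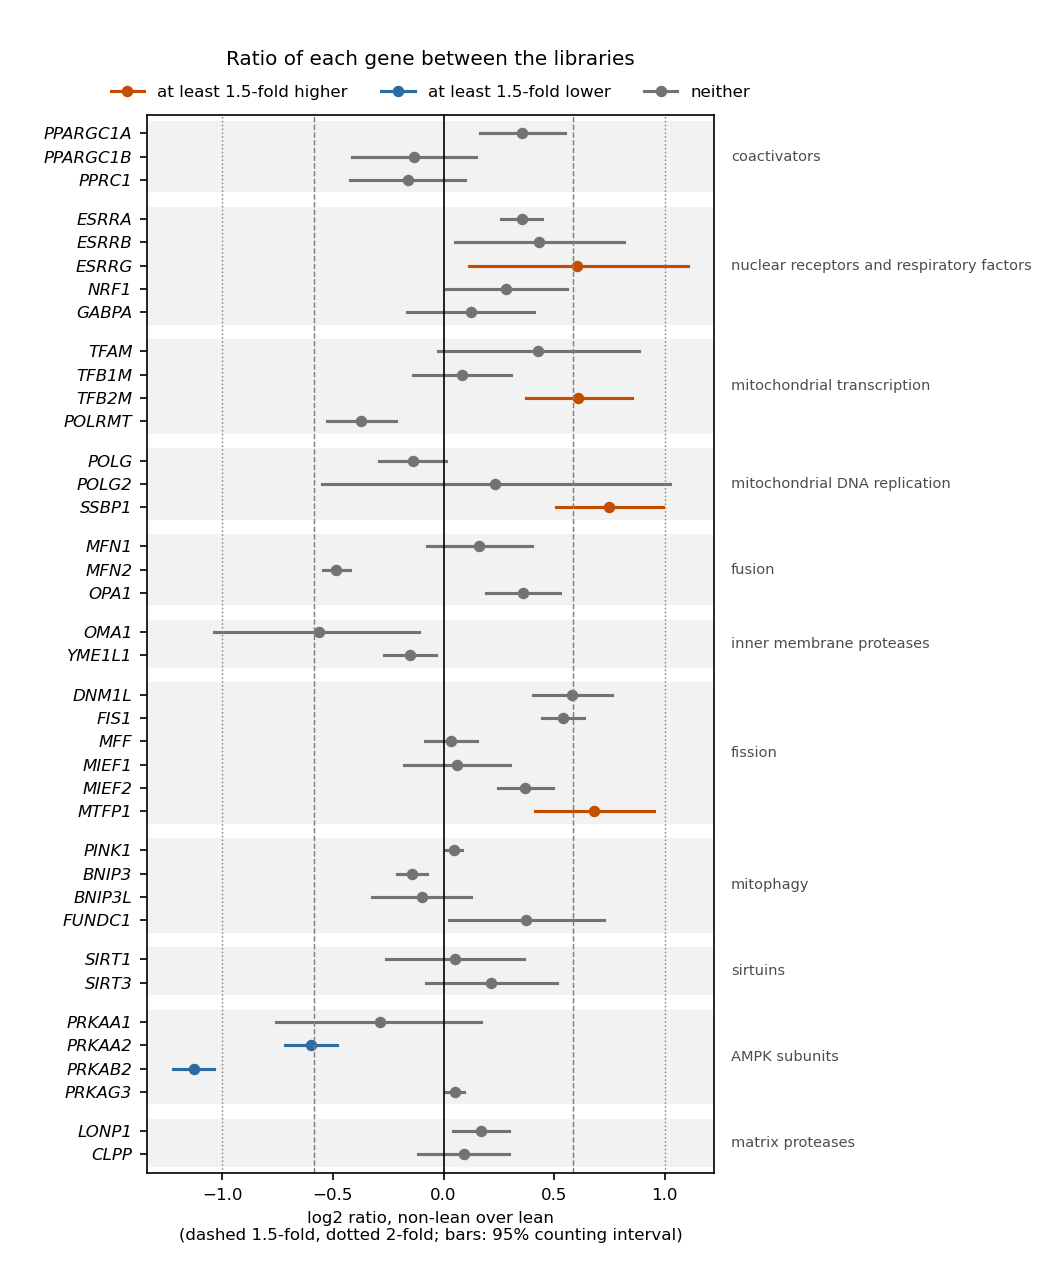
Log2 ratio, non-lean over lean, for each gene, with its 95% counting interval as a bar, dashed lines at 1.5-fold and dotted lines at 2-fold. The 4 genes at least 1.5-fold higher and the 2 at least 1.5-fold lower are coloured, and PRKAB2 is the only gene beyond a dotted line.

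Among the coactivators only PPARGC1A, which encodes PGC-1 alpha and is the best known driver of mitochondrial gene expression in muscle, had an interval clear of 0. It had 478 counts (35.7 CPM) in the non-lean and 425 counts (27.9 CPM) in the lean library, a log2 ratio of 0.36 [0.16, 0.55]. Its relative PPARGC1B had 193 counts in the non-lean and 241 in the lean library, a ratio of -0.13 [-0.41, 0.15]. The third member of the family, PPRC1, had 219 counts in the non-lean and 279 in the lean library, a ratio of -0.16 [-0.42, 0.10]. Both of these genes had intervals that held 0. PPARGC1B made up 28.8% of the summed counts of PPARGC1A and PPARGC1B in the non-lean library (25.4 to 32.4) and 36.2% in the lean library (32.5 to 40.0). With leading transcript models only, the direction turned, with shares of 32.0% (non-lean) and 17.7% (lean). Such a share needs no scaling between libraries, though its size in either one also depends on the lengths of both transcripts.

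All 5 nuclear receptors and respiratory factors had ratios above 0, as did 6742 of the 13707 tested genes, and 4 of their intervals lay above 0, against the background of 25.8%. ESRRA, the estrogen-related receptor alpha through which PGC-1 alpha acts on respiratory genes, had 1970 counts (147 CPM) in the non-lean and 1755 (115 CPM) in the lean library, a log2 ratio of 0.35 [0.26, 0.45]. ESRRG, the gamma receptor that is known from oxidative muscle, was 1.52-fold higher with 83 counts in the non-lean and 62 in the lean library, a ratio of 0.60 [0.12, 1.11]. ESRRB, the beta receptor, had 128 counts in the non-lean and 108 in the lean library and a ratio of 0.43 [0.05, 0.81]. Both of these rest on few counts, and the lower ends of their intervals lie near 0. NRF1, a transcription factor of respiratory and mitochondrial import genes, had 230 counts in the non-lean and 215 in the lean library, at 0.28 [0.01, 0.56]. The place of the NRF1 interval above 0 depends on the scale, since DESeq2 size factors shift ratios by -0.031. GABPA, the DNA-binding part of the other respiratory factor, had 199 counts in the non-lean and 208 in the lean library, and its ratio of 0.12 [-0.16, 0.41] held 0. The group median was 0.35.

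Factors that transcribe mitochondrial DNA went both ways. TFB2M, which opens the promoter for the mitochondrial RNA polymerase, was 1.53-fold higher, with 338 counts (25.3 CPM) in the non-lean and 252 counts (16.6 CPM) in the lean library, a log2 ratio of 0.61 [0.37, 0.85]. POLRMT, that polymerase itself, was 1.29-fold lower, with 567 counts in the non-lean and 835 in the lean library, a ratio of -0.37 [-0.53, -0.22]. TFAM, which packs mitochondrial DNA and starts its transcription, had only 91 counts in the non-lean and 77 in the lean library, and its ratio of 0.43 [-0.03, 0.88] held 0. TFB1M, a methyltransferase of mitochondrial ribosomal RNA related to TFB2M, was at 0.08 [-0.14, 0.31] with 326 counts in the non-lean and 350 in the lean library. TFB2M made up 50.9% of the counts of both TFB genes in the non-lean library (47.0 to 54.8) and 41.9% in the lean library (37.9 to 45.9), and these intervals did not overlap.

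Of the replication genes SSBP1, which coats single strands of mitochondrial DNA, had the highest ratio of all 38 genes. It had 354 counts (26.5 CPM) in the non-lean and 240 counts (15.8 CPM) in the lean library, 1.68-fold higher at a log2 ratio of 0.75 [0.51, 0.99]. POLG, the catalytic subunit of the mitochondrial DNA polymerase, had 661 counts in the non-lean and 829 in the lean library, at -0.14 [-0.29, 0.01]. POLG2, its accessory subunit, had 30 counts in the non-lean and 29 in the lean library, and its ratio of 0.23 [-0.55, 1.02] had the widest interval of the 38. TWNK, the replicative helicase found under its older symbol, had 152 counts in the non-lean and 193 in the lean library, at -0.16 [-0.47, 0.16]. SSBP1 was thus the only one of these replication genes with an interval clear of 0.

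The fusion GTPases differed among themselves. MFN2, mitofusin 2 of the outer membrane, had 3656 counts (273 CPM) in the non-lean and 5822 counts (383 CPM) in the lean library, a log2 ratio of -0.48 [-0.54, -0.42] or 1.40-fold lower. MFN1, its relative, had 295 counts in the non-lean and 300 in the lean library, at 0.16 [-0.07, 0.40]. OPA1, which fuses the inner membrane and shapes cristae, was higher at 0.36 [0.19, 0.53], with 632 counts in the non-lean and 561 in the lean library. MFN2 took 92.5% of mitofusin counts in the non-lean (91.7 to 93.3) and 95.1% in the lean library (94.5 to 95.6), so the MFN2 to MFN1 ratio was 1.57-fold lower in non-lean muscle. Both proteases that cut OPA1 had intervals below 0, as did 28.8% of all tested genes. OMA1, the stress-activated one, had 64 counts in the non-lean and 108 in the lean library, at -0.56 [-1.04, -0.11], and YME1L1, an ATP-dependent one, had 1075 counts in the non-lean and 1358 in the lean library, at -0.15 [-0.27, -0.03]. The sign of YME1L1 was kept with total counts as the scale, but the ratio was then -0.01. OMA1 stood at -0.42 on that scale. The shift of 0.14 that it brings is larger than the distance of either upper end from 0. With its leading transcript model only, the sign of YME1L1 turned, at 0.27.

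All 6 fission genes had ratios above 0, with a median of 0.45, and 4 of their intervals lay above 0. Over all tested genes 6742 of 13707 ratios and 25.8% of intervals lay above 0. MTFP1, a fission protein of the inner membrane, was 1.60-fold higher, with 279 counts in the non-lean and 198 in the lean library, a log2 ratio of 0.68 [0.41, 0.95]. DNM1L, the GTPase that constricts the organelle, had 604 counts (45.2 CPM) in the non-lean and 459 counts (30.2 CPM) in the lean library, at 0.58 [0.41, 0.76], just short of 1.5-fold. FIS1, an outer membrane fission protein, had 1995 counts (149 CPM) in the non-lean and 1562 counts (103 CPM) in the lean library, at 0.54 [0.44, 0.64]. These 3 genes lay furthest from 0 in the group. MIEF2, one of the receptors that bring DNM1L to the membrane, was at 0.37 [0.24, 0.49] with 1120 counts in the non-lean and 987 in the lean library. Its relative MIEF1 had 278 counts in the non-lean and 303 in the lean library, at 0.06 [-0.18, 0.30]. MFF, a further DNM1L receptor, had 1115 counts in the non-lean and 1239 in the lean library, at 0.03 [-0.08, 0.15]. Summed over genes, fission stood at 403 CPM in the non-lean and 312 CPM in the lean library, while the 3 fusion genes stood at 343 CPM (non-lean) and 439 CPM (lean), most of it MFN2.

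PINK1, BNIP3 and BNIP3L, of the mitophagy genes, lay near 0, while FUNDC1 was higher. PINK1, the kinase that builds up on damaged mitochondria, had the most counts of the 38 genes, with 11412 counts (853 CPM) in the non-lean and 12570 counts (826 CPM) in the lean library, a log2 ratio of 0.05 [0.01, 0.08]. BNIP3, a mitophagy receptor induced by low oxygen and fasting, had 3201 counts in the non-lean and 4021 in the lean library, at -0.14 [-0.21, -0.08]. BNIP3L, its relative, had 306 counts in the non-lean and 373 in the lean library, at -0.10 [-0.32, 0.12]. These differences were 1.10-fold and 1.07-fold. FUNDC1, a receptor of the outer membrane, was higher at 0.37 [0.02, 0.73] with 147 counts in the non-lean and 129 in the lean library. The FUNDC1 ratio rests on few counts, and the lower end of its interval lies near 0. BNIP3L held 8.73% of the counts of the BNIP3 pair in the non-lean library (7.81 to 9.71) and 8.49% in the lean library (7.68 to 9.35), intervals that overlapped widely.

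The largest difference among the 38 genes was in a subunit of AMPK, a complex of a catalytic alpha, a scaffolding beta and a nucleotide-sensing gamma subunit. PRKAB2, the beta subunit typical of muscle, had 1287 counts (96.2 CPM) in the non-lean and 3205 counts (211 CPM) in the lean library. It was 2.19-fold lower at a log2 ratio of -1.13 [-1.22, -1.04], which placed it at percentile 5.57 of all tested genes. PRKAA2, the catalytic subunit most used in muscle, was 1.51-fold lower at -0.60 [-0.71, -0.48], with 947 counts (70.8 CPM) in the non-lean and 1631 counts (107 CPM) in the lean library. PRKAA1, the more widespread catalytic subunit, had 69 counts in the non-lean and 96 in the lean library, at -0.29 [-0.76, 0.17]. PRKAG3, a gamma subunit found mainly in fast glycolytic muscle, had 8221 counts (615 CPM) in the non-lean and 9036 counts (594 CPM) in the lean library, at 0.05 [0.01, 0.09]. PRKAB2 and PRKAA2 were thus lower in the non-lean library, while the PRKAG3 sum, which includes a non-coding model, was nearly equal. With its leading coding model only, PRKAG3 stood at 0.96.

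The AMPK genes outside the 38 had other ratios. PRKAB1, the other beta subunit, had 176 counts in the non-lean and 224 in the lean library, at -0.16, and PRKAB2 therefore made up 88.0% of beta counts in the non-lean library (86.2 to 89.6) and 93.5% in the lean library (92.6 to 94.3). Among the gamma genes PRKAG1 was higher at 0.52 with 1080 counts in the non-lean and 859 in the lean library, and PRKAG2 had 180 counts in the non-lean and 182 in the lean library. PRKAG3 made up 86.7% of gamma counts in the non-lean library (86.0 to 87.4) and 89.7% in the lean library (89.1 to 90.3). These PRKAG3 counts include its non-coding model. For the catalytic genes the PRKAA2 share was 93.2% in the non-lean (91.5 to 94.7) and 94.4% in the lean library (93.3 to 95.5), intervals that overlapped. Shares within the beta and gamma subunits were computed after the values had been seen.

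**Figure D3:**
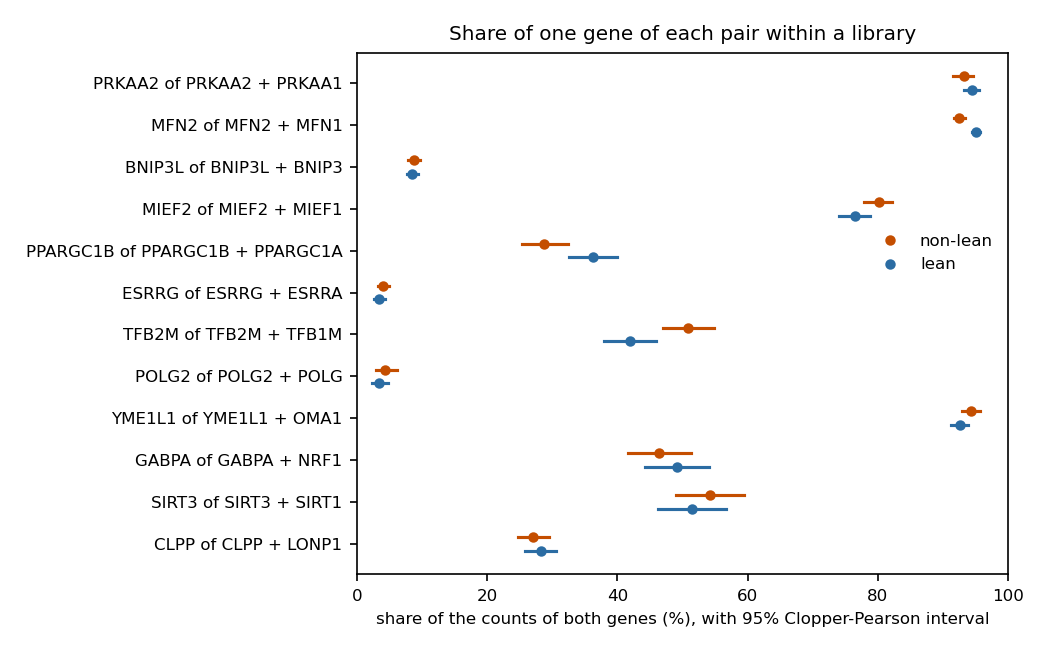
Share of the summed counts of a pair held by its first named gene, as a point with its 95% Clopper-Pearson interval, for the non-lean library above and the lean library below in each pair. The intervals do not overlap for 3 of the 12 pairs, those of MFN2, PPARGC1B and TFB2M. No background share over other pairs of genes was computed, and the direction for PPARGC1B turns with leading transcript models only.

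Deacetylases and matrix proteases showed little difference. SIRT1, a nuclear deacetylase that acts on PGC-1 alpha, had 165 counts in the non-lean and 181 in the lean library, a log2 ratio of 0.05 [-0.26, 0.37]. SIRT3, its mitochondrial counterpart, had 196 counts in the non-lean and 192 in the lean library, at 0.22 [-0.08, 0.51]. LONP1, the protease that degrades damaged matrix proteins and TFAM, was at 0.17 [0.04, 0.30] with 1012 counts in the non-lean and 1024 in the lean library. CLPP, the proteolytic core of the other large matrix protease, had 376 counts in the non-lean and 402 in the lean library, at 0.09 [-0.12, 0.30]. CLPP took 27.1% of the counts of this pair in the non-lean library (24.8 to 29.5) and 28.2% in the lean library (25.9 to 30.6).

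The estimated counts are given per transcript model, and for several genes the model with most counts was not the same in both libraries. This held for 9 of the 28 listed genes that had counts in 2 or more models, against 31.5% of all tested genes with 2 or more such models, so the listed genes were near the background. Models are numbered here by their counts over both libraries, and the values are point estimates with no interval. MFN2 had 2748 estimated counts in model 1 and 793 in model 2 in the non-lean library, and 2117 in model 1 and 3436 in model 2 in the lean library. The sum of MFN2 was thus lower through model 2, while model 1 alone had a log2 ratio of 0.56, opposite in sign to the gene. In MFN1 the same 2 ranks changed places, with model 1 holding 87.2% of its counts in the non-lean and 26.4% in the lean library.

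MIEF2 had 1065 of its 1120 non-lean counts and 230 of its 987 lean counts in model 1, and model 2, with 539 estimated counts in the lean library, was estimated at 0 in the non-lean library. PPARGC1B likewise had 97.7% of its non-lean counts and 32.2% of its lean counts in model 1. PPRC1 went the other way, with 17.9% of its non-lean and 100% of its lean counts in model 1. PRKAG3 differed in a non-coding model, which held 24.1% of its counts in the non-lean and 49.1% in the lean library. Its main coding model had 5159 estimated counts in the non-lean and 3010 in the lean library, although the sums of the gene were nearly equal.

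NRF1 had 58.4% of its non-lean and 31.2% of its lean counts in model 1, and TFB1M had 40.8% of its non-lean and 37.1% of its lean counts there. ESRRG split its few counts over 7 models, 4 of which were estimated at 0 in one of the libraries. PPARGC1A, by contrast, kept its leading model, with 83.8% of its counts in the non-lean and 85.2% in the lean library. MFF spread over 11 models with counts, and the leading one held 49.5% in the non-lean and 55.4% in the lean library. OPA1 and DNM1L kept their leading models as well, at 48.7% and 76.0% in the non-lean and 53.4% and 71.1% in the lean library. SSBP1 had 86.1% of its non-lean and 79.2% of its lean counts in its leading model, and YME1L1 had 60.6% of its non-lean and 45.2% of its lean counts. For 18 of the 38 genes the summed estimate was not a whole number within 0.1 in at least 1 library, as happens when reads are shared with other genes. PRKAB2, PRKAA2, MFN2, PINK1, BNIP3 and PRKAG3 are among these 18, so their values depend on how those reads were divided.

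**Figure D4:**
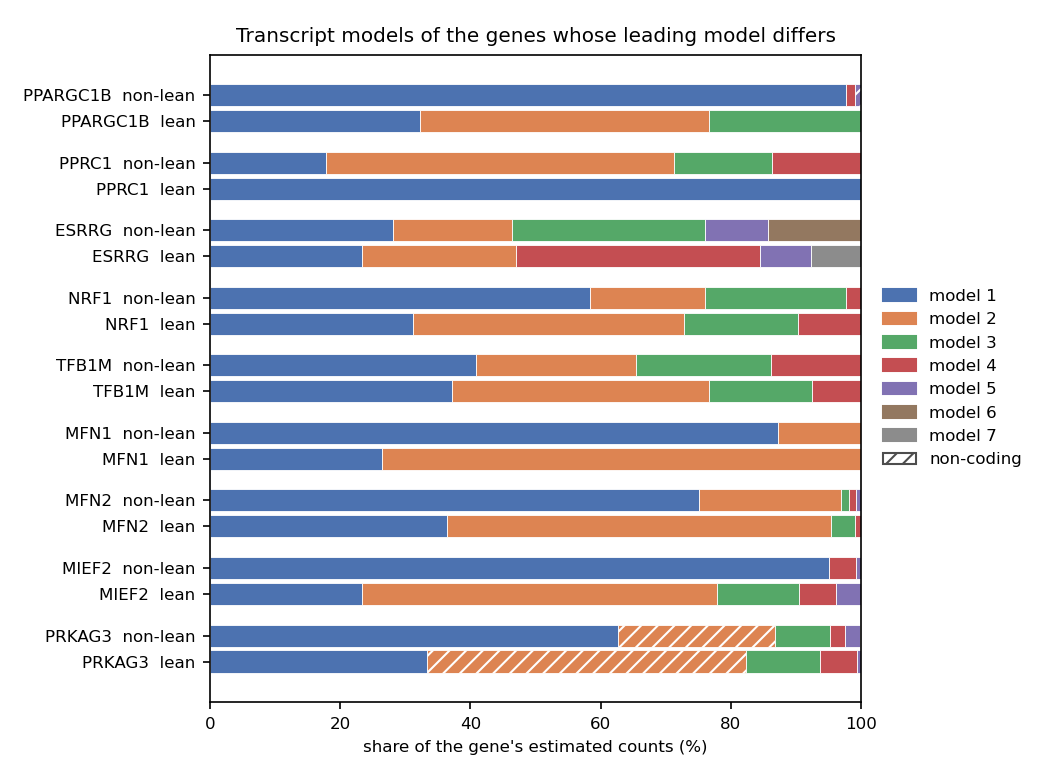
Share of the estimated counts of a gene in each of its transcript models, for the 9 genes whose leading model differs between the libraries, with the non-lean bar above the lean bar and hatching for non-coding models. In MFN1, MFN2, MIEF2 and PPARGC1B the blue model leads in the non-lean library and an orange one in the lean library, and in PRKAG3 the hatched model holds 24.1% in the non-lean and 49.1% in the lean library.

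The spans of some listed genes overlap that of a neighbour in the RefSeq annotation of assembly T2T-MFA8v1.1. Whole gene spans were compared, not exons, so whether reads are shared was not tested. Where exons overlap, reads without strand cannot be told apart. GABPA overlaps ATP5PF, a subunit of ATP synthase, which had 2195 counts in the non-lean and 1598 in the lean library at a log2 ratio of 0.64 [0.55, 0.74]. ESRRA overlaps TRMT112, an activator of methyltransferases, which had 539 counts in the non-lean and 638 in the lean library at -0.06 [-0.22, 0.11]. The named neighbours of TFB1M, POLG, POLG2 and CLPP with values had at most 13 counts in either library. Overlapping genes without a name, such as those at PRKAA2, ESRRG and DNM1L, were not described.

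Further genes of the same pathways were described from 7 lists, whose counts at 1.5-fold stand against 11.9% higher and 15.4% lower of all tested genes. Among 35 regulators of biogenesis the median log2 ratio was 0.03, and 1 gene was at least 1.5-fold higher and 3 were at least 1.5-fold lower. KAT2A, the acetyltransferase also known as GCN5 that holds back PGC-1 alpha, was 1.89-fold higher, with 1155 counts in the non-lean and 694 in the lean library. GABPB2, a partner of GABPA, was next at 0.61 [-0.08, 1.32]. SIRT5, a mitochondrial desuccinylase, was lowest at -0.77 [-1.12, -0.43] with 106 counts in the non-lean and 206 in the lean library, followed by the fatty acid receptor PPARA at -0.63 [-1.27, -0.03]. MEF2C, a muscle transcription factor with the most counts of the list, was at -0.03 [-0.07, 0.01].

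Of 35 genes of mitochondrial DNA maintenance and expression, 5 or 14.3% were at least 1.5-fold higher, near the background of 11.9%, and 0 lower, against 15.4%, with a median of 0.12. DNA2, a nuclease and helicase, had 27 counts in the non-lean and 7 in the lean library, at 2.06 [0.90, 3.58], and MTERF4, which helps to build the mitochondrial ribosome, was at 0.75 [0.51, 0.99]. LIG3, the mitochondrial DNA ligase, was lowest at -0.45 [-0.93, 0.01], and PNPT1, an RNA-degrading enzyme, was at -0.38 [-0.66, -0.10]. SLC25A4, the adenine nucleotide carrier of muscle, had the most counts, 28796 in the non-lean and 20055 in the lean library, and was 1.63-fold higher.

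Of 31 accessory factors of mitochondrial shape and transport, 3 or 9.68% were at least 1.5-fold higher, against 11.9% of tested genes, and 2 or 6.45% lower, against 15.4%, with a median of 0.11. PLD6, a phospholipase of the outer membrane, had 27 counts in the non-lean and 10 in the lean library, at 1.58 [0.53, 2.83], and INF2, an actin assembly factor in fission, was 1.70-fold higher. TRAK1, which links mitochondria to motor proteins, was 1.72-fold lower with 1189 counts in the non-lean and 2332 in the lean library, and the cristae protein APOOL was 1.51-fold lower. MTFR1L, with the most counts, was at 0.10 [0.01, 0.19].

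Mitophagy receptors and adaptors had a median of 0.12 over 26 genes, with 2 at least 1.5-fold higher and 2 lower. TBK1, a kinase of mitophagy adaptors, was at 0.82 [0.44, 1.21], and MAP1LC3A, an autophagosome protein, at 0.61 [0.40, 0.82]. NIPSNAP1, a mitophagy signal, was lowest at -1.20 [-2.46, -0.15] on 10 counts in the non-lean and 27 in the lean library. VDAC1, the outer membrane channel with the most counts, was at 0.32 [0.27, 0.36].

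A list of matrix chaperones, proteases and related stress factors had a median of 0.09 over 19 genes, with 1 gene at least 1.5-fold higher and 1 lower. The genes past 1.5-fold were the transcription factors DDIT3 and ATF5, not chaperones or proteases. DDIT3, a stress transcription factor, was at 0.71 [0.42, 0.99] and the small protein UBL5 at 0.48 [0.33, 0.64]. ATF5, a transcription factor of the mitochondrial unfolded protein response, was 5.15-fold lower, with 194 counts in the non-lean and 1140 in the lean library, and the chaperone DNAJA3 was at -0.26 [-0.37, -0.15]. CHCHD10, with the most counts, was at 0.41 [0.38, 0.45].

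Medians were higher in a list of known targets of PGC-1 coactivators and in a list of respiratory chain subunits. The target list itself holds respiratory chain subunits, such as COX5B, NDUFS8, SDHA, SDHB and UQCRC2, so the lists are alike in part. Of 20 known targets of PGC-1 coactivators, 9 were at least 1.5-fold higher and 1 lower, with a median of 0.44, against 11.9% and 15.4% of tested genes. CPT1B, the gate of fatty acid entry, was 2.73-fold higher and ACADM, an enzyme of fatty acid oxidation, 2.15-fold higher. HK2, a hexokinase, was lowest at -0.76 [-1.29, -0.26], and PDK4, an inhibitor of pyruvate oxidation, was at -0.02 [-0.28, 0.24]. Myoglobin, MB, had the most counts, 178608 in the non-lean and 116358 in the lean library, at 0.80 [0.79, 0.82]. Of 28 respiratory chain subunits, 9 were at least 1.5-fold higher and 0 lower, with a median of 0.41. COX7A1 was highest, with 10943 counts in the non-lean and 6229 in the lean library, followed by UQCRB at 0.86, and NDUFS1 and ATP5F1A were lowest at -0.58 and -0.08, with ATP5F1A also the subunit with the most counts. These medians of 0.44 and 0.41 stood beside 0.11 for the 38 genes, 0.50 for genes known for short transcripts and 0.73 for slow fibre markers, and the differences between lists were not tested.

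**Figure D5:**
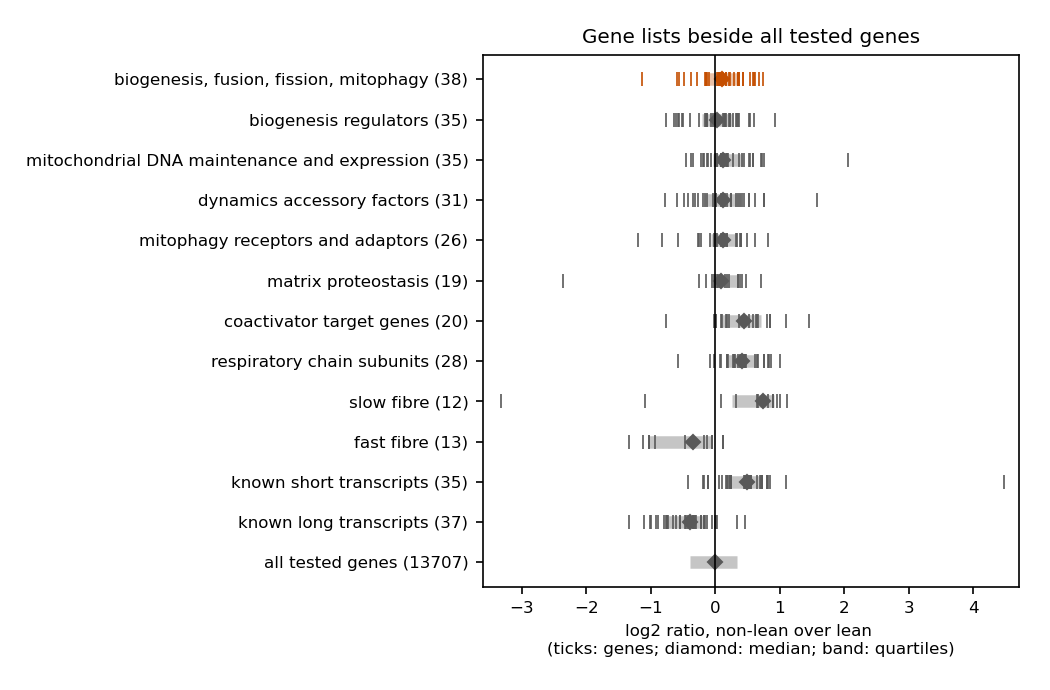
Log2 ratio, non-lean over lean, for the tested genes of each list, with a tick per gene, a diamond at the median and a band between the quartiles, no ticks for all tested genes, and the number of genes after each name. The 38 mitochondrial genes centre on 0.11, coactivator targets and respiratory subunits on 0.44 and 0.41, slow and fast fibre markers on 0.73 and -0.34, and all tested genes on -0.01.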

How the data were processed

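Gastrocnemius RNA of 1 non-lean and 1 lean sample was analysed. The authors deposited expected counts, which are estimated read counts per RefSeq transcript that need not be whole and are not normalised, with 76183 transcript rows in each file per the file headers. Tools listed in the submitters' processing notes, with no order or role, are RSEM 1.3.3, STAR 2.7.8a and Trim Galore 0.6.6. The genome build, annotation and filters that were used were not given in the sources used here. Per the labels' protocols reads may be single-end or paired-end, and no step that keeps strand is described.

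Estimates were summed per gene symbol and rounded, and 24 symbols written as dates were separated by transcript, giving 28175 genes. Libraries were scaled with edgeR 4.0.16 in R 4.3.3 (trimmed mean of M-values), with factors of 1.05 for the non-lean and 0.952 for the lean library. Log2 ratios carry a prior count of 0.5, and their intervals are exact Clopper-Pearson intervals of the split of the summed count. The intervals were tried on simulated independent counts, which hold no PCR copies or shared reads, so their coverage in these data was not tested. A gene is counted as higher or lower past 1.5-fold or 2-fold with an interval clear of 0. No test between groups was made.

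The members, lists and thresholds were chosen with earlier results of these data known. Every member is named, as are the 2 highest, the 2 lowest and the most counted gene of each pathway list, apart from 1 that is not reported here. Genes of other lists were matched by symbol, by transcript or gene number in a RefSeq table of assembly T2T-MFA8v1.1, or by an older symbol. Transcript lengths and sequences were not used here. Alternatives were other scalings, with DESeq2 1.42.0 for one of them, another prior count, other filters and leading transcripts. Python 3.11.15 with numpy 2.4.6, pandas 2.3.3, scipy 1.17.1 and matplotlib 3.10.9 was used.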

Additional observations from a re-analysis of the deposited data

How the results depend on the processing

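None of the 6 genes past 1.5-fold changed sign under the alternatives run, and single genes of the other lists were not rerun. With total counts as the scale, which lifts the median of all tested genes by 0.14, 6 of the 38 genes were at least 1.5-fold higher, 1 was at least 1.5-fold lower and 0 were 2-fold lower, since PRKAB2 then stood at -0.99. PPARGC1B, POLG and BNIP3L, whose intervals held 0, then had ratios of 0.01, 0.0016 and 0.04. With DESeq2 size factors 2 genes, MTFP1 and SSBP1, were at least 1.5-fold higher and 3 lower. With upper quartile scaling 5 were higher and 1 lower. Over all tested genes, 1490 were at least 1.5-fold higher and 2266 lower with DESeq2 size factors. These all-gene counts were 1838 and 1935 with upper quartile scaling, and 2414 and 1555 with total counts. ESRRG, TFB2M and PRKAA2 thus depend on the scale at 1.5-fold. So do DNM1L (higher with total counts and upper quartile), FIS1 (higher with total counts) and OMA1 (lower with DESeq2). PRKAB2 was at least 1.5-fold lower under every scaling run.

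With each gene reduced to its leading transcript model, 9 genes were at least 1.5-fold higher and 3 lower, and 4 were 2-fold higher and 2 lower. With every gene so reduced, chosen after seeing the data, 17.7% and 20.8% of 13280 tested genes were higher and lower at 1.5-fold, against 23.7% and 7.89% of the 38, and 9.22% and 12.7% at 2-fold, against 10.5% and 5.26%. MFN2 then stood at 0.56, against -0.48 for the gene, MFN1 at 1.88, MIEF2 at 2.40, NRF1 at 1.18, PPARGC1B at 1.46, against -0.13 for the gene, and PPRC1 at -2.64. PRKAG3 stood at 0.96, against 0.05 for the gene, YME1L1 at 0.27, against -0.15, and MFF at -0.13, against 0.03. The median of the 38 genes was 0.25 in that setting and with total counts, and 0.08 to 0.15 in the other scalings. A prior count of 2, no filter, a minimum of 5 CPM, and the inclusion of TWNK, chosen after seeing the data, left each count of the 38 genes within 1.5 times. Over all genes, a minimum of 5 CPM left 958 higher and 1340 lower at 1.5-fold, against 1629 and 2112, and 231 higher and 485 lower at 2-fold, against 673 and 982, since fewer genes are tested, and with no filter 1082 were 2-fold higher.

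No paired analysis was possible because each group has 1 library. Leaving out a replicate was not possible for the same reason, and no value here carries an error between animals. POLG2, OMA1, PRKAA1, ESRRG and TFAM had at most 108 counts in either library, where only large differences are detectable.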
